A study of Mus musculus with 12 samples.

Results

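The comparison asks how the response to cold differed between 2 fat depots of the mouse: brown fat (BAT) and the white fat under the skin (sWAT). All 12 libraries of the series entered it, with 3 libraries in each of 4 groups. BAT cold and sWAT cold came from mice kept at 4 °C, and BAT thermoneutral and sWAT thermoneutral from mice kept for the same 72 hours at 30 °C, a temperature at which mice need not spend energy on warming themselves. All were male wild-type C57Bl/6 animals aged 8 to 12 weeks, 20 in total with 10 at each temperature, and no genotype or drug differed between groups. Libraries were made from 1000 ng of total RNA and read as pairs of 100 nt. The labels do not say whether a library held 1 animal or a pool, or whether BAT and sWAT came from the same animals, so p-values measure the spread between these libraries, which may be technical. Whole tissue was sequenced, so fewer cells of a type and less RNA per cell cannot be told apart for any gene below.

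BAT burns fuel to make heat, whereas sWAT mainly stores triglyceride and can gain heat-producing beige adipocytes when an animal is kept in the cold. In both depots sympathetic nerves release noradrenaline, which acts through beta-adrenergic receptors and cyclic AMP to start lipolysis and to switch on genes such as Ucp1, Dio2 and Ppargc1a. Ucp1 lets protons leak across the inner mitochondrial membrane, Dio2 converts thyroid hormone to its active form, and Ppargc1a is a coactivator that drives mitochondrial biogenesis.

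The deposited values are raw counts for 23163 gene symbols, with 27117934 to 56243016 counts per library. In composition, 1 of the 4 groups stood apart. The 3 sWAT thermoneutral libraries had 0.181% to 0.307% of their counts in the 13 mitochondrially encoded genes, against 17.6% to 53.8% in the other 9, and 7.18% to 8.14% in ribosomal protein genes, against 0.338% to 1.85%. Wilson 95% intervals of these shares were at most 0.0345 percentage points wide, for counting error only. The slope of log2 CPM (counts scaled to the library total) on GC content was 0.80 to 1.37 per 10 percentage points in those 3 libraries and −0.74 to 0.24 in the others. Within BAT cold, library 3 also differed, with 53.8% mitochondrially encoded counts against 24.4% and 20.0% in libraries 1 and 2. Its ribosomal protein share was 0.338% against 1.05% and 1.01%, and its slope was −0.743 against 0.155 and 0.235. Because sWAT thermoneutral is the baseline of the sWAT response, its composition and the response in sWAT cannot be told apart.

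Depot markers were also checked. Hoxc10, a gene of the posterior body that marks subcutaneous fat, was at 0 in all 6 BAT libraries and at 6.28 to 21.5 CPM in all 6 sWAT libraries. Zic1, which marks interscapular BAT, was at 21.2, 30.5 and 13.9 CPM in BAT cold libraries 1, 2 and 3 and at 3.95, 5.06 and 18.2 CPM in BAT thermoneutral libraries. It was at 0, 0.0971 and 0.0190 CPM in sWAT thermoneutral libraries and at 0.0927 CPM in sWAT cold library 1, but at 9.30 and 6.74 CPM in sWAT cold libraries 2 and 3. Of the other brown adipocyte markers, Ucp1, Cidea and Prdm16 were also lower in sWAT cold library 1 than in libraries 2 and 3. Ebf2 was higher there, at 32.0 CPM against 22.2 and 25.2 CPM. Lhx8 was at 1.48, 2.32 and 1.85 CPM in sWAT cold and at 1.28, 2.01 and 1.76 CPM in sWAT thermoneutral. Of 4 genes with at least 3 CPM in every BAT library and at most 0.2 CPM in every sWAT thermoneutral library, a choice made after Zic1 had been seen, the median level was 4.36%, 60.1% and 39.8% of that in BAT cold in sWAT cold libraries 1, 2 and 3. Sums of 12 skeletal muscle markers ran from 8098 to 22569 CPM in sWAT cold, from 135 to 5713 CPM in sWAT thermoneutral, and from 4118 to 13228 CPM in BAT. Sums of 10 macrophage markers ran from 292 to 443 CPM in sWAT cold, from 981 to 1547 CPM in sWAT thermoneutral and from 110 to 179 CPM in BAT. Calls of named genes that are lost, and counts of gene lists that move, when sWAT cold libraries 2 and 3 are left out are given both ways; sWAT cold is then 1 library that is assumed to vary like the other groups, and 9.9% of 17540 genes tested had the higher and 5.17% the lower sWAT response.

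**Figure D1:**
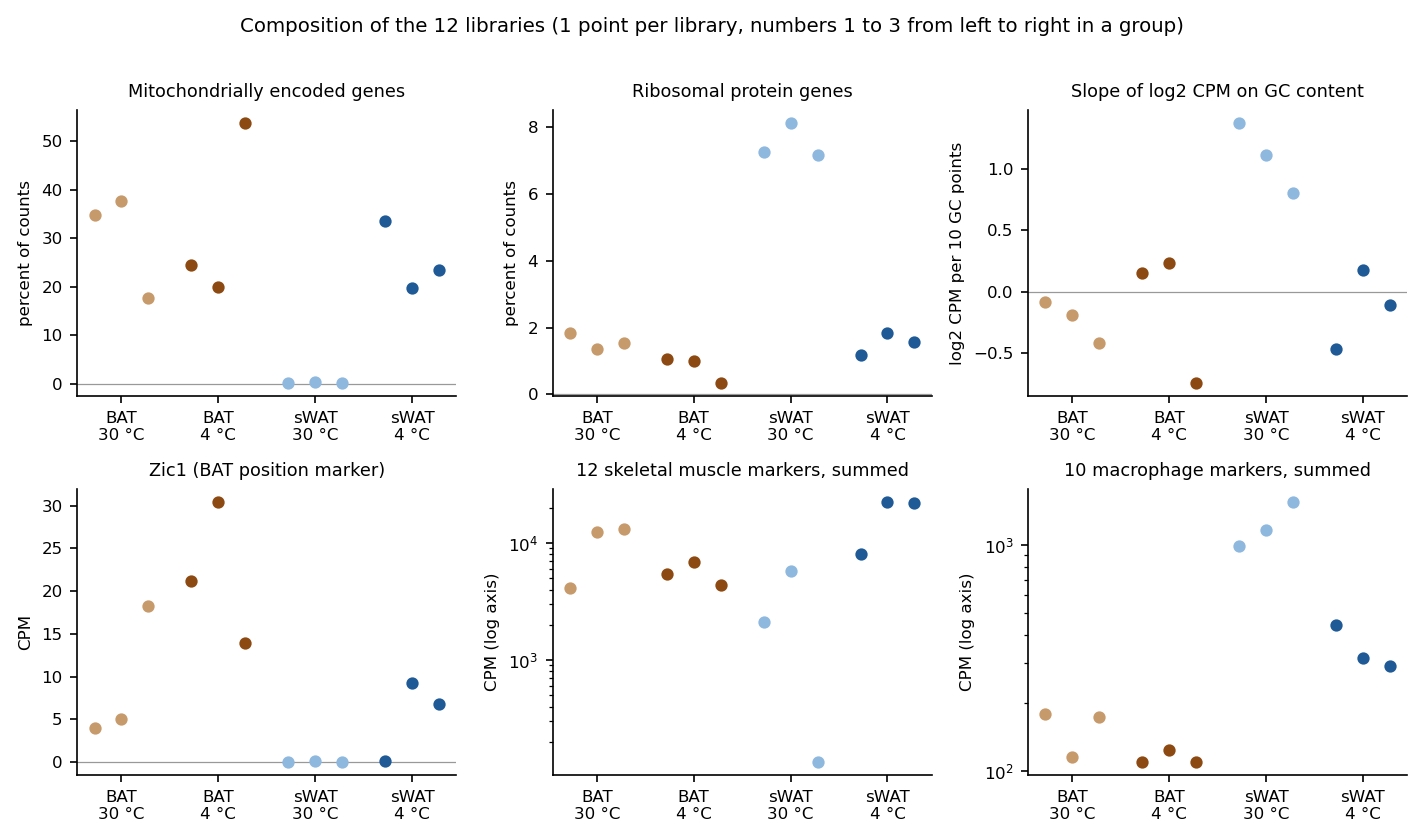
Each panel shows 1 value per library (vertical axis, units on the panel) for the 4 groups (horizontal axis), with libraries 1 to 3 from left to right. The 3 sWAT thermoneutral libraries had mitochondrial shares of 0.181% to 0.307%, and Zic1 was at 9.30 and 6.74 CPM in sWAT cold libraries 2 and 3 against 0.0927 CPM in library 1.

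A gene's response is its log2 fold change from thermoneutral to cold, and the difference is the sWAT response minus the BAT response. Both come from 1 fit to the 12 libraries, with edgeR's quasi-likelihood test and Benjamini-Hochberg adjustment over 16365 genes tested, and values are given ± standard error (SE) with 3 libraries per group. The difference passed an adjusted p of 0.05 in 4108 genes, 25.1% of those tested. The sWAT response was the higher one in 2824 of them (17.3%) and the lower one in 1284 (7.85%). Differences that passed in every fit that left out 1 library numbered 1380 higher (8.43%) and 590 lower (3.61%). The median difference of all genes tested was 0.12 and became −0.03 with median-of-ratios (RLE) scaling, where 2423 were higher and 1727 lower, so the higher share of the calls was 68.7% in one scaling and 58.4% in the other. DESeq2 called 2884 higher and 2290 lower.

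Most of the called differences were responses that passed in sWAT alone. In this class 2172 genes rose and 931 fell in cold sWAT while the BAT response did not pass. Their differences passed with a correction for GC content, which could be made for 2111 and 908 of them, in 1310 and 335. The BAT response alone passed in 180 genes that rose and 282 that fell, and 65 and 212 of these differences passed with that correction. Both responses passed in the same direction in 137 genes, of which 84 rose more and 20 fell more in sWAT, and 22 rose more and 11 fell more in BAT. Both passed in opposite directions in 193 genes (1.18% of those tested), 146 up in sWAT and down in BAT (0.892%) and 47 the other way (0.287%). Neither response passed by itself in 129 genes with the higher and 84 with the lower sWAT response. The responses themselves passed in 1157 genes upward (7.07%) and 1216 downward (7.43%) in BAT, and in 4415 upward (27%) and 3745 downward (22.9%) in sWAT.

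**Figure D2:**
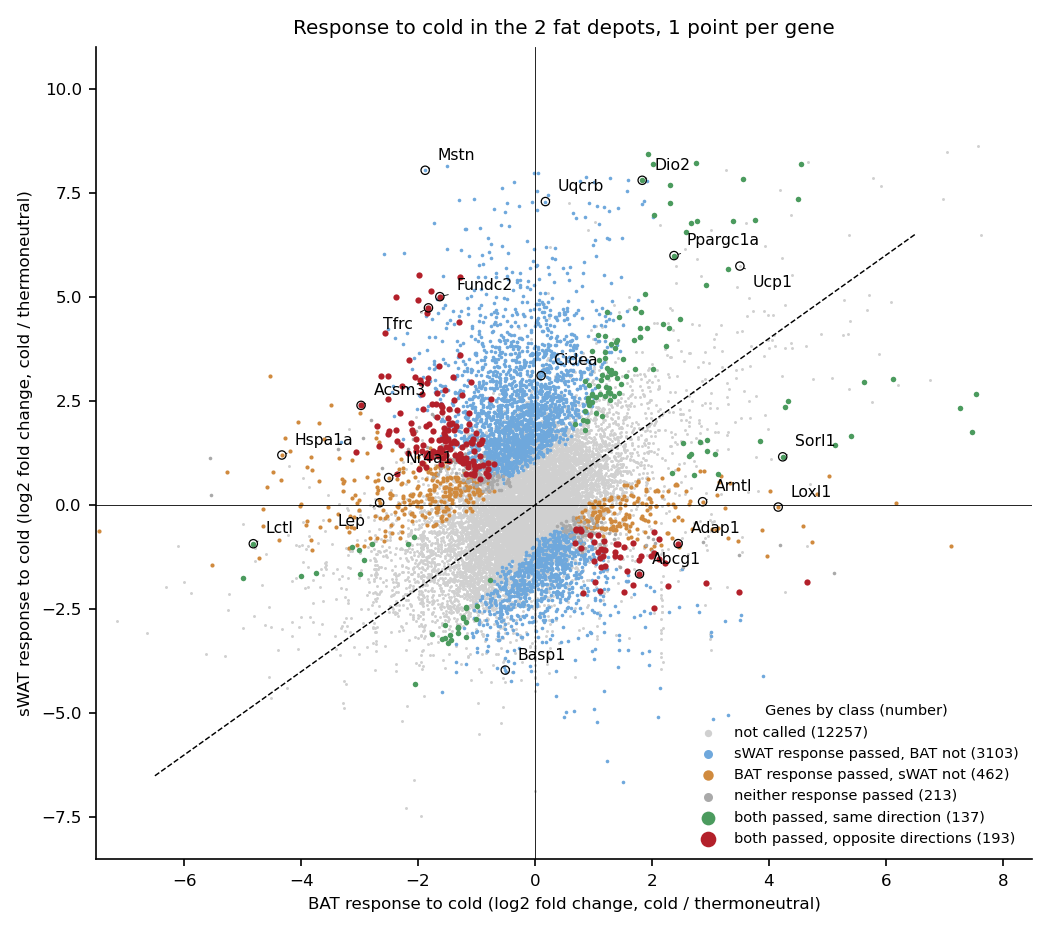
Each point is 1 of 16365 genes, with the BAT response to cold on the horizontal axis and the sWAT response on the vertical axis (log2 fold changes), coloured by class, and the dashed line marks equal responses; 8 genes lie outside the axes. The 193 genes with opposite responses fall in the upper left and lower right, and Dio2 lies at 1.83 in BAT and 7.80 in sWAT.

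The widest opposite responses with sWAT rising were those of Fundc2, Tfrc, Angpt1 and Acsm3. Fundc2 (mm10 chromosome X, 75382399 to 75396459), a protein of the outer mitochondrial membrane, was at 55.3, 66.6 and 37.2 CPM in BAT thermoneutral libraries 1, 2 and 3 and at 14.8, 12.2 and 24.4 CPM in BAT cold. In sWAT it went from 0.488, 1.09 and 1.25 CPM at thermoneutrality to 27.7, 22.8 and 41.1 CPM in cold. The groups of a depot did not overlap, and the difference was 6.63 ± 0.58 (adjusted p = 9.4e-05). Tfrc (chromosome 16, 32608920 to 32632794), the transferrin receptor that brings iron into cells, was at 220.2, 202 and 36.4 CPM in BAT thermoneutral and 37.9, 26.0 and 65.7 CPM in BAT cold libraries. There, thermoneutral library 3 was below the highest cold library, while the fitted BAT response passed at −1.82 ± 0.57 (adjusted p = 0.0472). In sWAT Tfrc was at 1.37, 2.62 and 3.77 CPM at thermoneutrality and at 81.4, 52.4 and 74.0 CPM in cold, and the difference was 6.56 ± 0.85 (adjusted p = 0.000633).

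Angpt1 (chromosome 15, 42424723 to 42676977) encodes angiopoietin, a ligand of the endothelial receptor Tek. It was at 19.0, 24.6 and 39.2 CPM in BAT thermoneutral libraries, at 3.85, 3.10 and 7.60 CPM in BAT cold, at 0.465, 1.36 and 2.26 CPM in sWAT thermoneutral and at 18.3, 6.79 and 10.2 CPM in sWAT cold. It fell in BAT in all 3 cold libraries and rose in sWAT in all 3, with a difference of 5.61 ± 0.79 (adjusted p = 0.000785). Acsm3 (chromosome 7, 119760923 to 119787513), a mitochondrial ligase that activates medium-chain fatty acids, was at 151, 231 and 225 CPM in BAT thermoneutral libraries and 23.7, 20.5 and 33.2 CPM in BAT cold. In sWAT its values were 0.93, 4.73 and 6.54 CPM at thermoneutrality and 20.4, 18.9 and 25.1 CPM in cold. The 6 cold libraries, of either depot, thus lay between 18.9 and 33.2 CPM, and the difference was 5.37 ± 0.72 (adjusted p = 0.000677).

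Smaller opposite responses with sWAT rising were found in 3 genes of the pathway lists. Fdft1, squalene synthase at the entry to the sterol branch, was at 163, 234 and 252 CPM in BAT thermoneutral and 61.4, 65.2 and 51.2 CPM in BAT cold libraries. In sWAT it was at 23.0, 24.5 and 29.3 CPM and 42.6, 54.7 and 46.6 CPM at thermoneutrality and in cold, a narrow rise that did not overlap, and the difference was 2.77 ± 0.34 (adjusted p = 0.000538). Steap4, a metalloreductase of iron and copper uptake, fell by 1.18 ± 0.37 in BAT and rose by 1.47 ± 0.37 in sWAT, with a difference of 2.65 ± 0.52 (adjusted p = 0.00395). Ifit1, an interferon-induced RNA-binding protein, fell by 1.28 ± 0.38 in BAT and rose by 1.22 ± 0.38 in sWAT (difference 2.5 ± 0.54, adjusted p = 0.0061).

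Opposite responses with sWAT falling were led by Ly6d, Abcg1, Ptprf and Adap1. Ly6d (chromosome 15, 74762056 to 74763620), a surface protein known as a marker of early lymphoid cells, was at 0.544, 0.311 and 0.351 CPM in BAT thermoneutral and 1.16, 1.84 and 0.807 CPM in BAT cold. Its levels in sWAT were 101, 107 and 88.0 CPM at thermoneutrality and 33.2, 31.0 and 14.4 CPM in cold, and the difference was −3.59 ± 0.54 (adjusted p = 0.00115). Sums of 15 lymphocyte markers beside it were 16.1 to 28.1 CPM in BAT, 351 to 1158 CPM in sWAT cold and 1095 to 1515 CPM in sWAT thermoneutral. Of these markers 0 had the higher and 1 the lower sWAT response (6.67% called, beside 25.1% of all genes), with a median difference of −0.38. With GC correction 0 were called. The part of lymphocytes in the Ly6d difference was not tested.

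Abcg1 (chromosome 17, 31057675 to 31117988) exports cholesterol from cells to lipoproteins. It was at 6.67, 6.56 and 3.91 CPM in BAT thermoneutral, 21.2, 23.0 and 14.9 CPM in BAT cold, 70.0, 53.0 and 61.3 CPM in sWAT thermoneutral and 21.3, 19.9 and 17.3 CPM in sWAT cold. The cold libraries of the depots spanned the same levels, whereas the thermoneutral ones stood apart, and the difference was −3.44 ± 0.38 (adjusted p = 0.000356). Ptprf (chromosome 4, 118208213 to 118291405), the receptor tyrosine phosphatase LAR, rose by 2.13 ± 0.27 in BAT and fell by 1.29 ± 0.26 in sWAT (difference −3.42 ± 0.37, adjusted p = 0.000354). Adap1 (chromosome 5, 139271876 to 139325622), a GTPase-activating protein for Arf6, was at 8.48, 8.08 and 5.15 CPM in BAT thermoneutral and 51.9, 42.6 and 23.9 CPM in BAT cold, and at 57.9, 67.1 and 47.7 CPM and 25.5, 36.4 and 29.0 CPM in sWAT thermoneutral and cold. Its difference was −3.37 ± 0.44 (adjusted p = 0.000633). From the lists, Eln, which encodes elastin, had a difference of −2.71 ± 0.54 (adjusted p = 0.00416), a call lost with GC correction (−1.58), and Slc7a10, a neutral amino acid transporter of white adipocytes, −2.66 ± 0.45 (adjusted p = 0.00191).

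Median GC content was 44.2% in the 146 genes rising in sWAT and 54.9% in the 47 falling there, against 49.8% in all genes tested. Of these differences 128 and 41 passed with a correction for GC content, which could be made for 140 and 45 of them. It called 15.1% of all genes higher and 5.94% lower. Both responses still passed in opposite directions with this correction in 78 and 16 of the genes. The count of called genes with both responses past the threshold in opposite directions, 193 in the full fit, moved with the libraries left out. It was 54 without BAT cold library 1, 42 without BAT cold library 2, 97 without BAT thermoneutral library 1, 77 without BAT thermoneutral library 2, 113 without sWAT cold library 3 and 293 without BAT cold library 3. Without both BAT libraries numbered 3, where 29.8% of all genes had a called difference, it was 363, and without sWAT cold libraries 2 and 3 it was 101. The differences of the 8 genes leading these classes kept their direction and passed in both of the last fits, and passing in each fit that left out 1 library was a condition of their choice.

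**Figure D3:**
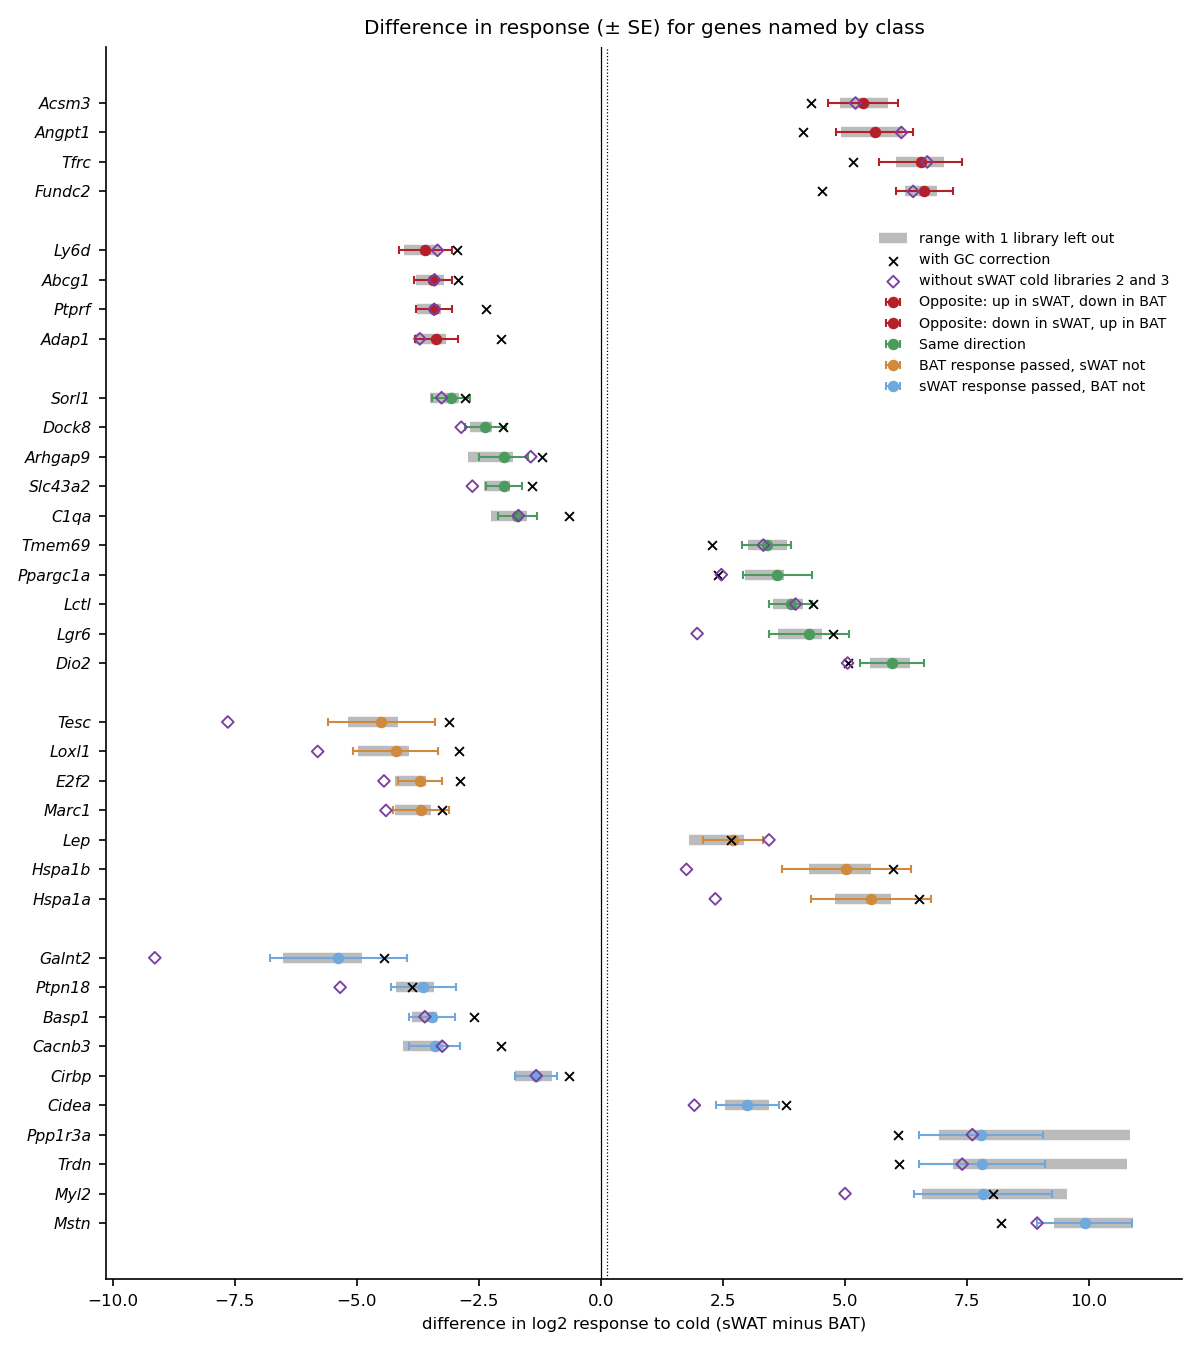
Points are the difference in log2 response, sWAT minus BAT (horizontal axis), ± SE for genes named by class (vertical axis), with the range over fits that leave out 1 library (grey), the GC-corrected value (cross) and the value without sWAT cold libraries 2 and 3 (diamond); the dotted line is the median of all genes, 0.12. Fundc2 lies at 6.63, with 4.54 after GC correction, and Tesc moves from −4.50 to −7.64 without those 2 libraries.

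Among genes that rose in both depots and more in sWAT, Dio2, Lgr6, Ppargc1a and Tmem69 were named by size, a choice that leaves out mitochondrially encoded genes, of which mt-Nd1 (6.49) and mt-Nd2 (5.47) are in the same class. Dio2 was at 58.9, 92.0 and 141 CPM in BAT thermoneutral libraries and 239, 304 and 496 CPM in BAT cold. In sWAT it was at 1.14, 0.704 and 0.493 CPM at thermoneutrality and at 98.3, 231 and 191 CPM in cold, so that sWAT started near 1 CPM and came within reach of the BAT range. The response was 1.83 ± 0.43 in BAT and 7.80 ± 0.57 in sWAT, a difference of 5.97 ± 0.65 (adjusted p = 0.000356). Ppargc1a went from 30.9, 51.9 and 108 to 194, 409 and 389.8 CPM in BAT and from 2.44, 2.26 and 1.75 to 65.6, 215 and 129.8 CPM in sWAT. Its difference was 3.61 ± 0.70 (adjusted p = 0.00383), and 2.47, still past 0.05, without sWAT cold libraries 2 and 3. Lgr6, a receptor for R-spondins, was at 21.0, 26.7 and 22.7 CPM in BAT thermoneutral and 269, 294 and 269.8 CPM in BAT cold. In sWAT it was at 0.581, 0.582 and 0.152 CPM at thermoneutrality and 21.5, 149.6 and 125 CPM in cold, where library 1, the library without Zic1, was far below the other two. Its difference of 4.26 ± 0.82 (adjusted p = 0.00369) was 1.97, still past 0.05, without sWAT cold libraries 2 and 3. Tmem69 had a difference of 3.40 ± 0.50 (adjusted p = 0.00102).

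The stretch before the Dio2 start site is shown because cyclic AMP, the second messenger of noradrenaline, acts on genes through the CRE motif, and Cycs, the gene of cytochrome c, is shown beside it as the other named gene with this motif. Both are the 250 bases before the RefSeq start site (build GRCm38.p6, minus strand, chr12:90739039-90739288 for Dio2 and chr6:50566570-50566819 for Cycs), written 5′ to 3′ with the CRE (TGACGTCA, its own reverse complement) in capitals.
Dio2: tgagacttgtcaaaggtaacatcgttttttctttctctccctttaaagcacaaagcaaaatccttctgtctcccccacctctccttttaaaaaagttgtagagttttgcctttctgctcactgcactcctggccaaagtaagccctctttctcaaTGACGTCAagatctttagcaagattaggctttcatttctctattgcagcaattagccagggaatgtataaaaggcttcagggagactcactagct
Cycs: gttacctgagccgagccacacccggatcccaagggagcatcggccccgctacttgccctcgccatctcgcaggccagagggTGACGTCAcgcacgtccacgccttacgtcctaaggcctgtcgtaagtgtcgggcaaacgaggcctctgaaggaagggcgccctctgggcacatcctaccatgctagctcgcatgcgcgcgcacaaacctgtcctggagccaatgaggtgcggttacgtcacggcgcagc
The match begins 95 bases before the start site in Dio2 and 169 bases before it in Cycs. Of 75 named genes with an entry in the RefSeq table, these were the only ones with an exact CRE in this window. An exact CRE was in a promoter of 1.77% of all 27025 gene symbols with RefSeq promoters, and of 2.77% of the 11870 symbols that were tested. The share was 3.26% of 2026 genes with the higher sWAT response and 2.15% of 930 with the lower one. The E-box CACGTG, which clock factors bind, was in 9.31% of tested genes, 8.59% of those with the higher and 10.3% of those with the lower sWAT response. These are matches of letters, searched on both strands, and no test was made of them.

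Of 30 genes of the thermogenic programme 13 had the higher response in sWAT, 0 had the lower one and 17 did not pass. The share called was 43.3%, beside 25.1% of all genes, and the median difference was 1.63 against 0.12 in all genes. In BAT 17 of them rose and in sWAT 26, with median responses of 1.77 and 3.48, and none fell in either. Cidea, a lipid droplet protein of brown adipocytes, was at 4049, 4025 and 3015 CPM in BAT thermoneutral and 4216, 4241 and 3466 CPM in BAT cold, groups that overlapped. In sWAT it went from 356, 217 and 120.1 to 1002, 2664 and 2317 CPM, and the difference was 3.00 ± 0.64 (adjusted p = 0.00585). Esrrg, a nuclear receptor that works with Ppargc1a, had a difference of 3.07 ± 0.50 (adjusted p = 0.0016), and Fabp3, a fatty acid carrier, 5.40 ± 0.88 (adjusted p = 0.00167). Without sWAT cold libraries 2 and 3 the list count was 5 higher and 2 lower, and Cidea had 1.92 (adjusted p = 0.0725, with 1.21e-05 to 0.0725 over all alternatives).

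Ucp1 itself did not pass. Its level was 1419.7, 1816 and 2554 CPM in BAT thermoneutral and 23105, 22519 and 20081 CPM in BAT cold, and 377, 106 and 41.2 CPM in sWAT thermoneutral and 3212, 13215 and 11606 CPM in sWAT cold. It rose in both depots, by 3.50 ± 0.75 in BAT and 5.74 ± 0.84 in sWAT, with a difference of 2.24 ± 0.98 (adjusted p = 0.108), and 0.60 without sWAT cold libraries 2 and 3. Elovl3, which lengthens very long acyl chains, rose by 7.04 ± 0.65 and 8.48 ± 0.70, and the difference of 1.44 ± 0.73 did not pass (adjusted p = 0.159) and turned to −0.59 without those 2 libraries. Fgf21, a hormone, rose by 3.99 ± 0.96 and 3.97 ± 0.95 from levels under 0.4 CPM, and its difference of −0.02 ± 1.93 (adjusted p = 1) changed sign under other settings. Fasn, the fatty acid synthase, had a difference of −0.79 ± 0.75 (adjusted p = 0.454), positive with GC correction (0.29), Adipoq, which encodes adiponectin, 1.13 ± 0.54 (adjusted p = 0.137), and Rbm3, a cold-inducible RNA-binding protein, 1.41 ± 0.63 (adjusted p = 0.116). Cirbp, its relative, was called at −1.33 ± 0.43 (adjusted p = 0.0382), and the call was lost without BAT cold library 1 or 2, BAT thermoneutral library 2 or 3, sWAT cold library 2 or 3 or sWAT thermoneutral library 1 (−1.0 to −1.48), with GC correction (−0.66) and without sWAT cold libraries 2 and 3 (−1.32), the adjusted p running up to 0.308 over all alternatives.

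**Figure D4:**
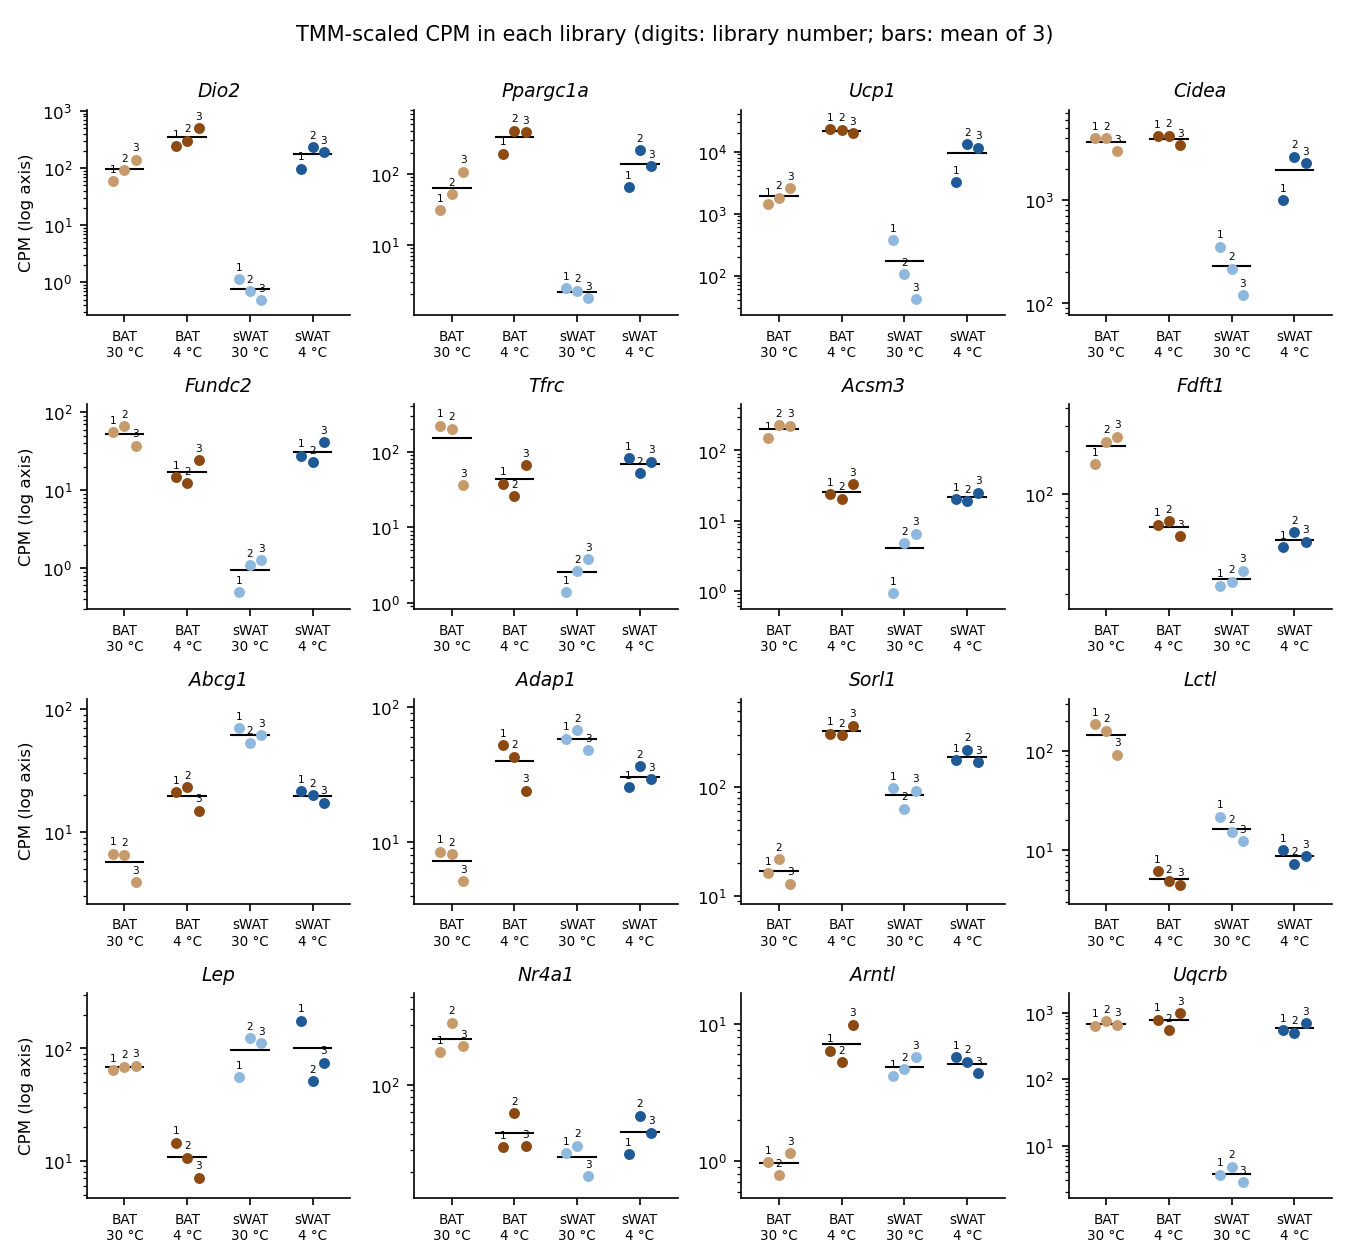
TMM-scaled CPM (log axis) of 16 genes in each of the 12 libraries, by depot and temperature, with the library number above each point and a bar at the mean of 3. Fundc2, Tfrc, Acsm3 and Fdft1 fell in BAT and rose in sWAT, Abcg1 and Adap1 did the reverse, and Sorl1 and Lctl changed more in BAT.

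Few genes changed in the same direction and more strongly in BAT. Sorl1 (chromosome 9, 41964720 to 42124297), a sorting receptor of the endosome, was at 16.3, 21.9 and 13.1 CPM in BAT thermoneutral and 306, 298 and 363 CPM in BAT cold. In sWAT it was at 97.8, 63.5 and 92.4 CPM at thermoneutrality and 177, 220.1 and 169 CPM in cold. It rose in both without overlap, by 4.24 ± 0.31 and 1.16 ± 0.27, a difference of −3.08 ± 0.39 (adjusted p = 0.000591). Dock8, an activator of the GTPase Cdc42, rose by 3.12 ± 0.32 in BAT and 0.76 ± 0.29 in sWAT (difference −2.37 ± 0.42, adjusted p = 0.00238). Slc43a2, a carrier of large neutral amino acids, rose by 2.71 ± 0.27 and 0.73 ± 0.26 (difference −1.99 ± 0.37, adjusted p = 0.00293). Lctl (chromosome 9, 64117147 to 64138118), a klotho-related membrane protein, fell from 186, 159 and 91.9 CPM to 6.18, 4.85 and 4.51 CPM in BAT and from 21.7, 15.3 and 12.4 CPM to 9.94, 7.30 and 8.74 CPM in sWAT. Its responses were −4.82 ± 0.35 and −0.93 ± 0.30, and the difference of 3.89 ± 0.44 (adjusted p = 0.000356) is positive because the fall in BAT was the deeper one.

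Genes that fell in both depots and more in sWAT numbered 20, and 3 of these passed in every fit that left out 1 library. Arhgap9, a GTPase-activating protein of blood cells, had a difference of −1.99 ± 0.50 (adjusted p = 0.0124), and C1qa, a complement gene of macrophages, −1.71 ± 0.40 (adjusted p = 0.0095). With GC correction they had −1.21 (adjusted p = 0.11) and −0.65 (adjusted p = 0.333), and without sWAT cold libraries 2 and 3 −1.44 (adjusted p = 0.0666) and −1.69 (adjusted p = 0.0537). Over all alternatives the adjusted p ran from 0.000103 to 0.11 and from 0.000162 to 0.333. In the macrophage list, 1 of 10 markers had the higher and 4 the lower response in sWAT (median difference −0.89), 0 and 2 without sWAT cold libraries 2 and 3 and 0 and 0 with GC correction, and the part of these cells in both genes was not tested.

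Leptin fell in BAT, while its response in sWAT did not pass. Lep (chromosome 6, 29060220 to 29073877), the satiety hormone of adipocytes, was at 64.5, 69.0 and 70.1 CPM in BAT thermoneutral and 14.5, 10.7 and 7.10 CPM in BAT cold. In sWAT it was at 55.6, 124 and 111 CPM at thermoneutrality and 177, 51.0 and 74.9 CPM in cold, groups that overlapped. The BAT response was −2.66 ± 0.46 and the sWAT response 0.06 ± 0.43 (adjusted p = 0.921), and the difference of 2.71 ± 0.62 (adjusted p = 0.00803) was 1.82 without sWAT cold library 1, which had the highest level. Nampt, an enzyme of NAD synthesis that is also secreted, rose in sWAT, while its BAT response did not pass (difference 3.54 ± 0.41, adjusted p = 0.00038), and Igfbp2, a binding protein of insulin-like growth factors, fell there, from 5.91, 4.15 and 4.19 to 0.26, 0.328 and 0.407 CPM, with at most 0.151 CPM in any BAT library (difference −5.80 ± 1.22, adjusted p = 0.00555, not past 0.05 without BAT cold library 2 (−4.98)). The list of secreted hormones and factors had 30.4% called, beside 25.1% of all genes. Of 23 secreted hormones and factors tested, 5 had the higher response in sWAT and 2 the lower, with a median difference of 0.22, and 4 and 3 without sWAT cold libraries 2 and 3.

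Immediate early genes, which cells switch on within minutes of a stimulus, fell in cold BAT in 9 of 18 tested, and 0 rose. Over all genes, 7.07% rose and 7.43% fell in BAT, 27% rose and 22.9% fell in sWAT, and 25.1% had a called difference (median 0.12). In sWAT 1 of the 18 rose and 5 fell. Of the differences, 7 had the higher response in sWAT and 0 the lower (38.9% called, median difference 1.44), with medians of −1.59 in BAT and −0.28 in sWAT, and the count was 6 and 1 without sWAT cold libraries 2 and 3. Nr4a1, an orphan nuclear receptor, was at 181, 312 and 203 CPM in BAT thermoneutral and 31.4, 59.2 and 32.1 CPM in BAT cold, but at 28.4, 32.5 and 18.5 CPM and 27.7, 56.4 and 41.4 CPM in sWAT thermoneutral and cold. It fell by 2.5 ± 0.37 in BAT, the sWAT response of 0.66 ± 0.35 did not pass (adjusted p = 0.137), and the difference was 3.16 ± 0.51 (adjusted p = 0.00158). Its relative Nr4a3 fell by 2.59 ± 0.33 in BAT with a difference of 2.47 ± 0.45 (adjusted p = 0.00269). Nr4a2 rose in sWAT by 2.80 ± 0.41 with a difference of 2.63 ± 0.55 (adjusted p = 0.00545), which did not pass without sWAT cold libraries 2 and 3 (1.93).

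Heat shock genes, whose products refold proteins, showed 7 higher and 1 lower sWAT responses among 18 tested. The share called was 44.4%, beside 25.1% of all genes, and the median difference was 1.25 against 0.12 in all genes. Hspa1a was at 203, 129.9 and 43.0 CPM in BAT thermoneutral and 6.99, 10.6 and 1.14 CPM in BAT cold, and at 1.44, 2.18 and 2.54 CPM and 0.556, 6.11 and 7.67 CPM in sWAT thermoneutral and cold. It fell by 4.33 ± 0.92 in BAT, and the difference was 5.53 ± 1.23 (adjusted p = 0.0071). Hspa1b, a near-identical copy whose reads may be shared with it, had 5.03 ± 1.32 (adjusted p = 0.0157). Without sWAT cold libraries 2 and 3 these were 2.35 (adjusted p = 0.182) and 1.76 (adjusted p = 0.394), within 2.09e-05 to 0.182 and 0.00184 to 0.394 over all alternatives, and the list had 1 higher and 0 lower. Dnajb4 (3.26 ± 0.61, adjusted p = 0.00315) and Dnaja1 (2.07 ± 0.46, adjusted p = 0.00714), co-chaperones of Hsp70, rose in sWAT, and their BAT responses did not pass. The call of Dnaja1 was lost with GC correction (0.82) and without those 2 libraries (1.74).

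Of 19 clock genes 6 had the higher sWAT response and 1, Arntl, the lower (36.8% called, beside 25.1% of all genes), with a median difference of 0.41, and 4 and 1 without sWAT cold libraries 2 and 3. In BAT 4 rose and 4 fell, and in sWAT 6 rose and 1 fell. Arntl, the activator of the clock known as Bmal1, was at 0.979, 0.791 and 1.15 CPM in BAT thermoneutral and 6.36, 5.24 and 9.79 CPM in BAT cold, and at 4.14, 4.66 and 5.67 CPM and 5.67, 5.28 and 4.35 CPM in sWAT. It rose in BAT by 2.87 ± 0.33, overlapped in sWAT, and differed by −2.79 ± 0.44 (adjusted p = 0.00136). Per3, a repressor of the clock, fell by 1.53 ± 0.25 in BAT with a difference of 1.48 ± 0.35 (adjusted p = 0.00888), which did not pass without BAT cold library 1 (1.26). Rora, an activator of Arntl, rose in sWAT by 2.40 ± 0.32 with a difference of 2.29 ± 0.44 (adjusted p = 0.00354). The hour of day at which tissue was taken is not given in the sources used here.

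Other genes that rose in BAT alone were named by the size of their difference. Tesc, a calcium-binding protein, was at 0.797, 0.989 and 1.41 CPM in BAT thermoneutral and 26.3, 18.2 and 3.36 CPM in BAT cold, and at 13.5, 14.1 and 10.5 CPM and 0.983, 12.4 and 11.7 CPM in sWAT. The difference was −4.50 ± 1.1 (adjusted p = 0.0116) and −7.64, still past 0.05, without sWAT cold libraries 2 and 3. Loxl1, which crosslinks elastin, went from 11, 7.12 and 4.69 to 185, 188 and 34.9 CPM in BAT and was at 98.4, 147 and 86.2 and 37.6, 178 and 106 CPM in sWAT (difference −4.21 ± 0.88, adjusted p = 0.0054). E2f2, a transcription factor of the cell cycle, differed by −3.70 ± 0.46 (adjusted p = 0.000538) and Marc1, a mitochondrial reductase, by −3.68 ± 0.57 (adjusted p = 0.00132).

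All 13 mitochondrially encoded genes had the higher response in sWAT, with a median difference of 6.75 (4.79 with GC correction). The cytochrome b gene mt-Cytb was at 35539, 45812 and 60202 CPM in BAT thermoneutral, 32809, 28682 and 102928 CPM in BAT cold, 120.3, 199 and 123 CPM in sWAT thermoneutral and 31719.6, 23179 and 22294 CPM in sWAT cold. The sWAT thermoneutral libraries stood far below the other 9, as in the share of all 13 genes given above, and the difference was 7.23 ± 0.82 (adjusted p = 0.000362). Of the complex I subunits mt-Nd1 and mt-Nd4, the differences were 6.49 ± 0.90 (adjusted p = 0.000747) and 7.02 ± 0.97 (adjusted p = 0.000744). Of 56 nuclear genes of the respiratory chain 12 were higher and 0 lower (median 0.83), 21.4% called beside the 25.1% of all genes. No response of these 56 passed in BAT and 22 rose in sWAT. Uqcrb, a subunit of complex III, was at 647, 748 and 669 CPM in BAT thermoneutral, 797, 546 and 993 CPM in BAT cold, 3.65, 4.83 and 2.81 CPM in sWAT thermoneutral and 554, 504 and 708 CPM in sWAT cold. The 9 libraries other than sWAT thermoneutral lay between 504 and 993 CPM, and the difference was 7.11 ± 0.48 (adjusted p = 1.71e-05). Cycs, whose promoter stretch is given above, went from 13.5, 6.67 and 1.44 to 243, 180.1 and 314 CPM in sWAT and overlapped in BAT (difference 5.0 ± 0.89, adjusted p = 0.00242), and Ndufs1, a subunit of complex I, had 2.79 ± 0.45 (adjusted p = 0.0016).

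In the citric acid cycle 7 of 20 genes were higher and 0 lower (median 1.41, 35% called), and 2 rose in BAT and 18 in sWAT. Those higher included Sucla2, of succinyl-CoA synthetase (3.76 ± 0.57, adjusted p = 0.00117), Dld, the shared dehydrogenase subunit (3.57 ± 0.62, adjusted p = 0.00215), and Idh3a, of isocitrate dehydrogenase (2.56 ± 0.55, adjusted p = 0.00628). In fatty acid oxidation 9 of 26 were higher and 1 lower (median 1.09, 38.5% called), while 9 rose in BAT and 20 in sWAT. Decr1, which handles unsaturated acyl chains, had 3.13 ± 0.42 (adjusted p = 0.000682) and Hadhb, of the trifunctional protein, 2.44 ± 0.51 (adjusted p = 0.00527). Glucose uptake and glycolysis had 7 higher and 1 lower of 30 (median 0.42), 26.7% called and near the 25.1% of all genes, with the muscle-type phosphofructokinase Pfkm at 2.87 ± 0.70 (adjusted p = 0.0109), Pdk4, which blocks pyruvate oxidation, at 2.98 ± 0.76 (adjusted p = 0.0135) and Pfkfb1, a regulator of phosphofructokinase, at 1.67 ± 0.44 (adjusted p = 0.0161). Without sWAT cold libraries 2 and 3 the counts were 5 of 56 higher in the respiratory chain, 2 in the citric acid cycle, 2 higher and 1 lower in fatty acid oxidation, and 1 higher and 2 lower in glycolysis, while all 13 mitochondrially encoded genes still passed. Of the genes named here, Idh3a (1.62), Hadhb (1.5), Pfkm (1.76) and Pdk4 (1.90) did not pass without those 2 libraries, Hadhb (0.83) and Pdk4 (2.31) did not with GC correction, Pdk4 did not without BAT cold library 1 (2.65), and Pfkfb1 did not without BAT cold library 1 or 2 or sWAT cold library 1 (1.17 to 1.45). Without both BAT libraries numbered 3, glycolysis had 3 higher and 2 lower.

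Lipid uptake genes that rose in sWAT, and whose BAT response did not pass, were Cd36, a fatty acid transporter, Vldlr, a receptor of triglyceride-rich lipoproteins, and Fabp4, the fatty acid carrier of adipocytes. Cd36 was at 1024, 1002 and 1109.6 CPM in BAT thermoneutral, 1423, 1135 and 2587 CPM in BAT cold, 69.7, 75.3 and 126 CPM in sWAT thermoneutral and 1508, 1071 and 1334 CPM in sWAT cold, and differed by 3.14 ± 0.52 (adjusted p = 0.00187). Vldlr differed by 3.01 ± 0.38 (adjusted p = 0.000578) and Fabp4 by 3.32 ± 0.63 (adjusted p = 0.00327). In that list 3 of 23 genes were higher and 1 lower, a share of 17.4% beside the 25.1% of all genes, and 3 and 0 without sWAT cold libraries 2 and 3. Fatty acid synthesis had 2 higher and 0 lower of 19, Elovl6, an elongase (2.24 ± 0.45, adjusted p = 0.00435), and Scd1, a desaturase (2.06 ± 0.64, adjusted p = 0.0316), whose call was lost without BAT cold library 1 or 2, BAT thermoneutral library 1 or 2, sWAT cold library 1, 2 or 3 or sWAT thermoneutral library 2 or 3 (1.59 to 2.19). In that list 10 genes rose in BAT and 10 in sWAT. Triglyceride synthesis had 2 and 0 of 13, Gpd2 (2.27 ± 0.48, adjusted p = 0.00554) and Gk (2.37 ± 0.59, adjusted p = 0.0122), which supply glycerol 3-phosphate or oxidise it, and cholesterol synthesis had 4 and 2 of 22, with Nsdhl at 2.02 ± 0.34 (adjusted p = 0.00191) and Idi1 at 2.45 ± 0.49 (adjusted p = 0.00422). Medians of these lists were 0.32, −0.05 and −0.03, and 0.47, 0.48 and 0.18 with GC correction. Their shares called were 10.5%, 15.4% and 27.3%, beside the 25.1% of all genes. Elovl6 (1.52), Scd1 (2.34), Gpd2 (1.83) and Gk (1.82) did not pass without sWAT cold libraries 2 and 3, where fatty acid and triglyceride synthesis had 0 called and cholesterol synthesis 3 higher and 0 lower. Scd1 (1.78) and Gk (1.0) did not with GC correction, and Gk did not without BAT cold library 1 (2.01).

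**Figure D5:**
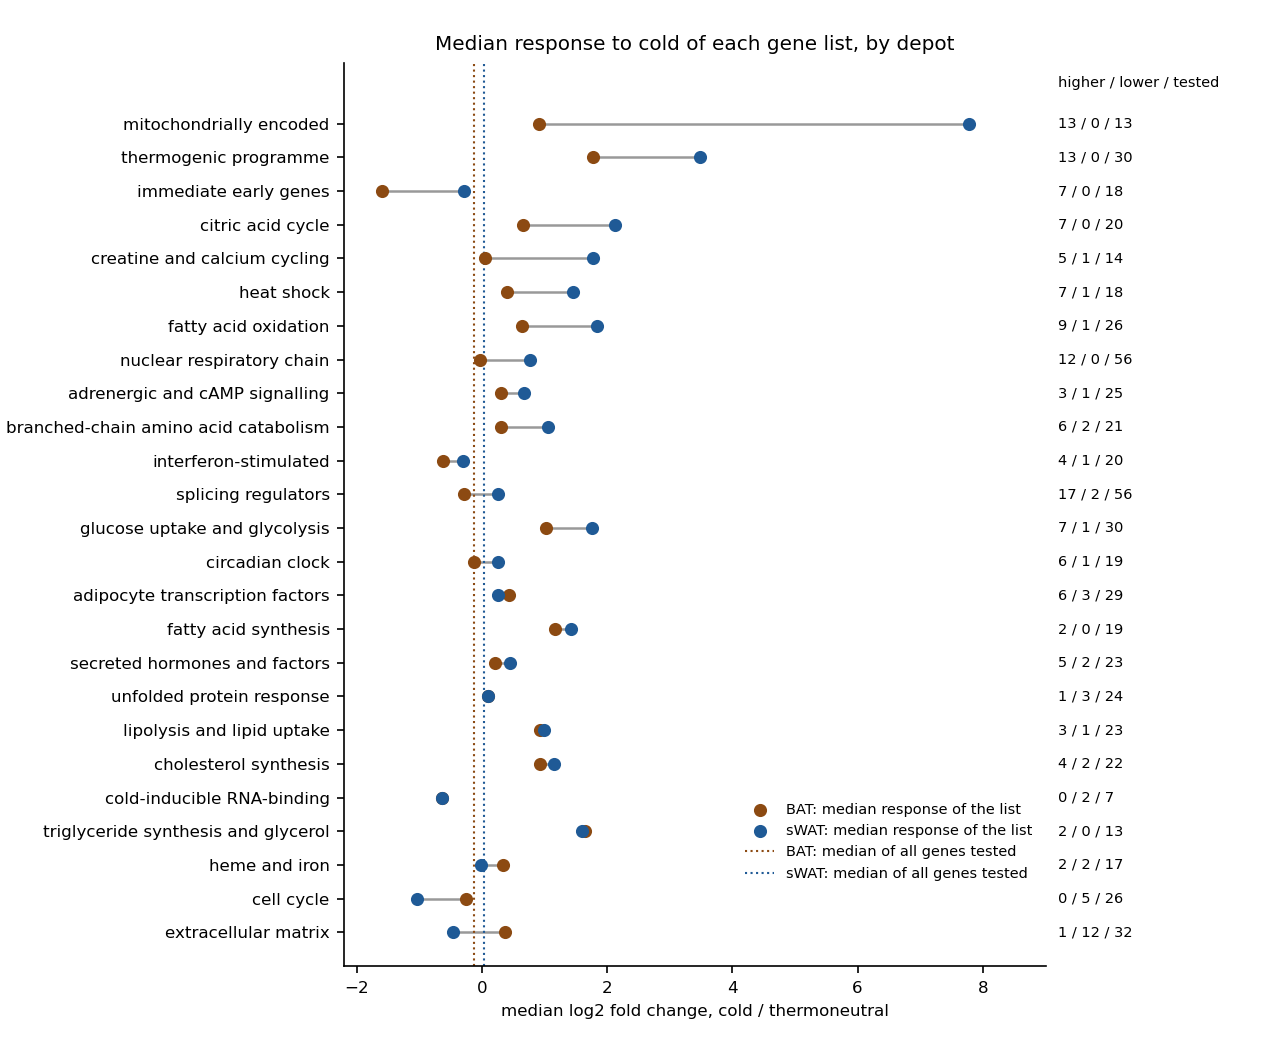
For each gene list (vertical axis) the median log2 response to cold in BAT (brown) and sWAT (blue) is plotted, with dotted lines at the medians of all genes (−0.13 and 0.03), and figures at the right give genes with higher and lower sWAT response and genes tested. Mitochondrially encoded genes had a median difference of 6.75 and extracellular matrix genes −1.12.

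Other lists with higher sWAT responses included splicing regulators, named in the title of the series, with 17 higher and 2 lower of 56 (median 0.48, 33.9% called), and 13 and 2 without sWAT cold libraries 2 and 3. Clk1, a kinase of splicing factors, was at 138, 104 and 91.0 CPM in BAT thermoneutral, 32.1, 38.8 and 72.2 CPM in BAT cold, 2.77, 5.82 and 11.7 CPM in sWAT thermoneutral and 86.3, 46.7 and 55.8 CPM in sWAT cold. It differed by 4.43 ± 0.67 (adjusted p = 0.00117), Rbfox1, a splicing factor of muscle and neurons, by 5.98 ± 0.87 (adjusted p = 0.000959), and Khdrbs3 by 2.99 ± 0.46 (adjusted p = 0.0013). With GC correction the count was 11 higher and 8 lower and the median 0.12. Srsf2, a serine- and arginine-rich splicing factor, had a difference of −1.91 ± 0.52 (adjusted p = 0.019), which did not pass without sWAT thermoneutral library 2 (−1.59). In creatine and calcium cycling 5 were higher and 1 lower of 14, and 1 and 1 without sWAT cold libraries 2 and 3. Of the 5, Ckmt2, Atp2a1 (3.78), the calcium pump of fast muscle, and its inhibitors Sln (4.95) and Pln (3.99) are genes of striated muscle; the last 3 are named after their values were seen. Muscle marker sums, 8098 to 22569 CPM in sWAT cold against 135 to 5713 CPM in sWAT thermoneutral, moved with this count, and their part in it was not tested. The share of this list called was 42.9%, beside 25.1% of all genes. Ckmt2, the creatine kinase of muscle mitochondria, had 5.09 ± 1.16 (adjusted p = 0.0081), and 3.53 (adjusted p = 0.0756) without sWAT cold libraries 2 and 3, within 5.61e-05 to 0.0756 over all alternatives. Slc6a8, the creatine transporter, had 1.53 ± 0.39 (adjusted p = 0.0143), and Atp2a3, a calcium pump of the endoplasmic reticulum, −1.94 ± 0.55 (adjusted p = 0.0221). Both were lost without those libraries (0.91 and −1.30), and Atp2a3 with GC correction (−0.98). Slc6a8 also did not pass without BAT cold library 1 or 2, BAT thermoneutral library 2 or sWAT cold library 2 (1.2 to 1.36), and Atp2a3 did not without BAT cold library 2, sWAT cold library 3 or sWAT thermoneutral library 1 (−1.66 to −1.94).

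The 4 genes named by size among those rising in sWAT alone are genes of muscle. Mstn, which encodes the muscle growth inhibitor myostatin, was at 0.761, 3.90 and 2.98 CPM in BAT thermoneutral, 0.582, 0.783 and 0.706 CPM in BAT cold, 0.093, 0.316 and 0.0569 CPM in sWAT thermoneutral and 21.6, 34.4 and 65.3 CPM in sWAT cold (difference 9.92 ± 0.97, adjusted p = 0.000197). Myl2, a myosin light chain of slow muscle, differed by 7.83 ± 1.41 (adjusted p = 0.0026), Trdn, of the calcium release complex, by 7.82 ± 1.29 (adjusted p = 0.00179) and Ppp1r3a, a glycogen-targeting subunit, by 7.80 ± 1.27 (adjusted p = 0.00166). Of the 12 skeletal muscle markers 7 were higher and 0 lower, with a median difference of 4.28, along with the sums given above, while 1 was higher without sWAT cold libraries 2 and 3 and 3 were without both BAT libraries numbered 3. The part of muscle RNA in these genes, and in Pfkm, Ckmt2 and Rbfox1, which muscle also expresses, was not tested.

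Of 32 extracellular matrix genes 12 had the lower and 1 the higher sWAT response, with a median difference of −1.12 against 0.12 in all genes. The share called was 40.6%, beside 25.1% of all genes. In BAT 6 rose and 1 fell, where 7.07% of all genes rose and 7.43% fell. In sWAT 1 rose and 12 fell, where 27% of all genes rose and 22.9% fell. Col1a1, the main fibrillar collagen, was at 93.2, 50.5 and 72.7 CPM in BAT thermoneutral, 78.4, 91.2 and 130.1 CPM in BAT cold, 1435, 812 and 600.2 CPM in sWAT thermoneutral and 178, 154 and 125 CPM in sWAT cold. It fell by 2.64 ± 0.38 in sWAT, overlapped in BAT, and differed by −3.11 ± 0.52 (adjusted p = 0.00192). Eln and Loxl1, given above, belong to this list. With GC correction 2 were higher and 4 lower, without sWAT cold libraries 2 and 3 the count was 1 and 3, and without both BAT libraries numbered 3 it was 4 and 8. Sums of 6 fibroblast markers ran from 943 to 1604 CPM in sWAT thermoneutral, from 407 to 675 CPM in sWAT cold and from 195 to 383 CPM in BAT. Col1a1 is among them and made up most of each sWAT thermoneutral sum. Of the 6 markers 0 had the higher and 2 the lower sWAT response, with a median difference of 0.32. Pi16 was lower in cold sWAT, whereas Dcn was at 44.1, 91.3 and 176 CPM in sWAT thermoneutral and 357, 137 and 178 CPM in sWAT cold. The part of fibroblasts in these differences was not tested.

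Of 26 cell cycle genes 5 had the lower sWAT response and 0 the higher (median −0.79), 19.2% called beside the 25.1% of all genes. In sWAT 16 of them fell, where 22.9% of all genes fell. Cdc20, of the anaphase-promoting complex, differed by −3.39 ± 0.69 (adjusted p = 0.00484), Mcm2, of the replicative helicase, by −1.98 ± 0.46 (adjusted p = 0.00868) and Ccna2, cyclin A, by −1.98 ± 0.53 (adjusted p = 0.0167), and 1 was lower without sWAT cold libraries 2 and 3, where Mcm2 (−1.81) and Ccna2 (−1.56) did not pass. Genes named for a fall in sWAT alone were Galnt2, a glycosyltransferase (−5.38 ± 1.40, adjusted p = 0.0151), Ptpn18, a phosphatase (−3.63 ± 0.66, adjusted p = 0.00266), Basp1, a membrane protein (−3.45 ± 0.47, adjusted p = 0.000729), and Cacnb3, a calcium channel subunit (−3.41 ± 0.52, adjusted p = 0.00126). Basp1 was at 48.1, 71.8 and 72.2 CPM in sWAT thermoneutral and 3.91, 4.65 and 3.76 CPM in sWAT cold, with 0.763 to 1.99 CPM in the 6 BAT libraries.

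The remaining lists had few or mixed differences. Beside 25.1% of all genes, the shares called were 31.0% of adipocyte transcription factors, 38.1% of branched-chain amino acid catabolism and 16.7% of the unfolded protein response. They were 25% of interferon-stimulated, 23.5% of heme and iron and 28.6% of cold-inducible RNA-binding genes. Adrenergic and cyclic AMP signalling had 3 higher and 1 lower of 25 (16% of the list), and 1 and 2 without sWAT cold libraries 2 and 3, with Pde4d, which degrades cyclic AMP, at 2.43 ± 0.50 (adjusted p = 0.00521), Rgs2, a brake on G proteins, at 2.14 ± 0.55 (adjusted p = 0.0138) and Adcy5, which makes cyclic AMP, at −2.06 ± 0.43 (adjusted p = 0.00532). Pde4d (1.22) and Rgs2 (2.20) did not pass without sWAT cold libraries 2 and 3, and Rgs2 (1.18) and Adcy5 (−0.82) did not with GC correction. Rgs2 also did not pass without BAT cold library 1 or 2 (1.76 and 1.94). Adipocyte transcription factors had 6 higher and 3 lower of 29, 3 and 3 without sWAT cold libraries 2 and 3, and 6 and 7 without both BAT libraries numbered 3. One of the 6 was Zic1 (5.79), whose levels in sWAT cold libraries 2 and 3 are given above. The list held Thrb, a thyroid hormone receptor, at 2.36 ± 0.49 (adjusted p = 0.00527), Ebf2, a factor of brown adipocyte identity, at 1.83 ± 0.38 (adjusted p = 0.00546) and Tbx15, a factor of subcutaneous adipocytes, at 2.57 ± 0.54 (adjusted p = 0.00558, lost without sWAT cold libraries 2 and 3 at 2.15). Branched-chain amino acid catabolism had 6 and 2 of 21, 1 and 1 without the same sWAT cold libraries and 3 and 2 with GC correction, with Hibch of the valine branch at 3.13 ± 0.46 (adjusted p = 0.00102) and Ppm1k, a phosphatase that activates the pathway, at 2.21 ± 0.55 (adjusted p = 0.0125), 0.85 with GC correction and 2.16 without those libraries, neither of which passed. It did not pass without BAT cold library 1 or 2 (1.85 and 1.90) either. The unfolded protein response had 1 higher, the chaperone Canx (2.04 ± 0.38, adjusted p = 0.00312), and 3 lower of 24 (1 and 2 without those libraries), with Sdf2l1 at −3.24 ± 0.77 (adjusted p = 0.00984) and the stress sensor Eif2ak3 at −1.03 ± 0.31 (adjusted p = 0.0269), −0.69 and −1.13 in the same alternatives, neither past 0.05. Eif2ak3 did not pass without sWAT cold library 3 or sWAT thermoneutral library 3 (−0.93 and −0.96) either. Interferon-stimulated genes had 4 higher and 1 lower of 20, and 5 and 0 without those libraries, with the guanylate-binding proteins Gbp2 at 1.54 ± 0.47 (adjusted p = 0.0306) and Gbp3 at 1.61 ± 0.44 (adjusted p = 0.018). The call of Gbp2 was lost without BAT cold library 1 or 2, BAT thermoneutral library 1 or 2, sWAT cold library 1 or 3 or sWAT thermoneutral library 1 or 2 (1.0 to 1.59), and that of Gbp3 without BAT cold library 1 or 2 or sWAT cold library 1 (1.05 to 1.45). Heme and iron genes had 2 and 2 of 17, and 2 and 1 without those libraries, with Hmox1, which degrades heme, at −1.02 ± 0.32 (adjusted p = 0.0342, lost with GC correction at −0.44 and without sWAT cold libraries 2 and 3 at −1.02). It was also lost without BAT cold library 2, BAT thermoneutral library 3, sWAT cold library 3 or sWAT thermoneutral library 1, 2 or 3 (−0.97 to −1.06). Cold-inducible RNA-binding genes had 0 and 2 of 7, and 0 and 1 without those libraries.

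In cold the depots' levels lay closer together than at thermoneutrality. The distance between mean log2 levels of BAT and sWAT, with 0.5 CPM added, had a median of 0.89 at thermoneutrality and 0.35 in cold over all genes tested, and was smaller in cold in 77.8% of them. Of genes with the higher sWAT response it was smaller in cold in 91.6% (1.82 against 0.35), and of those with the lower sWAT response in 96% (1.82 against 0.40). These are descriptions without a test, since a difference of responses is also a difference of distances. The thermoneutral distance includes the composition of the sWAT thermoneutral libraries. The cold distance includes sWAT cold libraries 2 and 3, which held Zic1 at 9.30 and 6.74 CPM against 0.0927 CPM in library 1. The part of either in these distances was not tested.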

How the data were processed

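Total RNA of BAT and sWAT was sequenced in 12 libraries, 3 in each of 4 groups. The authors deposited raw counts per gene symbol, and per the submitters' processing notes STAR, DESeq2 and build mm10 were used. No source used here gives the counting tool, the strand setting or the annotation. One cold library of each depot (BAT 1, sWAT 2) is headed Merged, with no meaning stated. Totals ranged from 27117934 to 56243016 counts, and no libraries of the same group agreed within sampling noise. Genes sharing reads with near-identical copies or overlapping genes may be split between them.

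The members and gene lists were chosen with earlier results of these data known. Genes were filtered with filterByExpr, scaled by TMM and fitted with 4 group means by edgeR 4.0.16 in R 4.3.3 (glmQLFit with robust=TRUE, glmQLFTest, two-sided). Standard errors are the absolute log2 difference divided by the square root of F. The 3 comparisons (each depot's response and their difference) were each adjusted by the Benjamini-Hochberg method over 16365 genes at 0.05. CPM values are TMM-scaled. The alternatives, 27 in all, used DESeq2 1.42.0, limma 3.58.1, other scalings and filters, GC correction with a spline, replicate blocks and left-out libraries. The script was tested on simulated data of 15813 genes, with true log2 differences of 1 in 100 genes and of 2 in 100 others. It called 0% and 17% of them, with 1 false call, so true differences of these sizes can fail to pass. Only those genes differed there, whereas 25.1% of genes were called in the data, so the shares found may not be the same.

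Named were, per class of difference, up to 4 genes of largest difference averaging 3 or more on the log2 CPM scale that passed in every fit leaving out 1 library (predicted, ribosomal and mitochondrially encoded genes left out), up to 3 genes per list, and 11 fixed genes. Some genes that this rule takes are not reported here. Gene positions, on mm10, and GC content came from GENCODE, with a GC value for 96.0% of the symbols in the table, and promoters from RefSeq (GRCm38.p6).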

Additional observations from a re-analysis of the deposited data

Results flagged for a closer look

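Of the 106 genes named, 100 are listed here because the depots' responses to cold differed by a test of the difference itself (edgeR's quasi-likelihood test, adjusted p of 0.05 or less), and each value below is the log2 difference, sWAT minus BAT. Rising in sWAT and falling in BAT were Fundc2 (6.63), Tfrc (6.56), Angpt1 (5.61), Acsm3 (5.37), Fdft1 (2.77), Steap4 (2.65) and Ifit1 (2.5). Falling in sWAT and rising in BAT were Ly6d (−3.59), Abcg1 (−3.44), Ptprf (−3.42), Adap1 (−3.37), Eln (−2.71) and Slc7a10 (−2.66). Rising in both depots and more in sWAT were mt-Nd1 (6.49), Dio2 (5.97), Lgr6 (4.26), Ppargc1a (3.61), Tmem69 (3.40), Esrrg (3.07), Khdrbs3 (2.99), Gk (2.37), Gpd2 (2.27), Elovl6 (2.24) and Nsdhl (2.02). Falling in both and more in sWAT were Arhgap9 (−1.99) and C1qa (−1.71). Rising in both and more in BAT were Sorl1 (−3.08), Dock8 (−2.37) and Slc43a2 (−1.99). Falling in both and more in BAT was Lctl (3.89). With a rise in BAT and a sWAT response that did not pass came Tesc (−4.50), Loxl1 (−4.21), E2f2 (−3.70), Marc1 (−3.68), Arntl (−2.79) and Eif2ak3 (−1.03). With a fall in BAT and a sWAT response that did not pass came Hspa1a (5.53), Hspa1b (5.03), Nr4a1 (3.16), Lep (2.71), Nr4a3 (2.47), Gbp3 (1.61), Gbp2 (1.54) and Per3 (1.48). With a fall in sWAT and a BAT response that did not pass came Igfbp2 (−5.80), Galnt2 (−5.38), Ptpn18 (−3.63), Basp1 (−3.45), Cacnb3 (−3.41), Cdc20 (−3.39), Sdf2l1 (−3.24), Col1a1 (−3.11), Adcy5 (−2.06), Mcm2 (−1.98), Atp2a3 (−1.94), Srsf2 (−1.91), Cirbp (−1.33) and Hmox1 (−1.02). A rise in sWAT with a BAT response that did not pass was the largest group. It held the muscle genes and genes with a known role in muscle Mstn (9.92), Myl2 (7.83), Trdn (7.82), Ppp1r3a (7.80), Rbfox1 (5.98), Ckmt2 (5.09) and Pfkm (2.87). It held the genes of mitochondria and fuel oxidation mt-Cytb (7.23), Uqcrb (7.11), mt-Nd4 (7.02), Cycs (5.0), Sucla2 (3.76), Dld (3.57), Decr1 (3.13), Hibch (3.13), Pdk4 (2.98), Ndufs1 (2.79), Idh3a (2.56), Hadhb (2.44) and Ppm1k (2.21). It held the genes of lipid and sugar handling Fabp3 (5.40), Fabp4 (3.32), Cd36 (3.14), Vldlr (3.01), Cidea (3.00), Idi1 (2.45), Scd1 (2.06) and Pfkfb1 (1.67). It also held Clk1 (4.43), Nampt (3.54), Dnajb4 (3.26), Nr4a2 (2.63), Tbx15 (2.57), Pde4d (2.43), Thrb (2.36), Rora (2.29), Rgs2 (2.14), Dnaja1 (2.07), Canx (2.04) and Ebf2 (1.83). Neither response passed by itself for Ccna2 (−1.98) and Slc6a8 (1.53). Mitochondrial shares, ribosomal protein shares and GC slopes of the sWAT thermoneutral libraries, and Zic1 and muscle marker levels of the sWAT cold libraries, moved with the same contrast, and their part in these values was not tested.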

How the results depend on the processing

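Genes with the higher and the lower sWAT response numbered 2824 and 1284, and genes with opposite responses 193. Fits that left out 1 library gave 1485 to 2921 higher, 691 to 2577 lower and 42 to 293 opposite. The lowest came without BAT cold library 1, sWAT cold library 3 and BAT cold library 2, and both highest lower and opposite counts without BAT cold library 3. DESeq2 gave 2290 lower and 308 opposite. Limma-voom with quality weights gave 4774, 3839 and 1519. A test against a minimum log2 fold of 1 gave 1270, 268 and 3. Without sWAT cold libraries 2 and 3, chosen after seeing the data, there were 1736 higher and 101 opposite, and without both BAT libraries numbered 3 there were 363 opposite. The causes were not tested. With the replicate numbers as a block the counts were 2849, 1380 and 209, and GC correction together with the replicate block gave 2151, 854 and 192. The sample titles number experiments 1 to 3 in every group, without saying what an experiment shared. Deviations from the group means correlated at 0.067 to 0.306 between same-numbered BAT libraries and at −0.468 to 0.531 over all same-numbered pairs, so whether the numbers pair the samples was not settled and the block was kept as an alternative. The higher share of the calls, 68.7%, was 58.4% with RLE scaling, 59.6% without mitochondrially encoded and ribosomal protein genes, 55.7% with DESeq2, 55.4% with quality weights and 82.6% against the minimum fold.

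Of 100 named genes called, 100 passed in the same direction with DESeq2, RLE scaling and the replicate block, 85 with GC correction, 80 with GC correction and the block, 80 against the minimum fold and 73 without sWAT cold libraries 2 and 3. Of all 4108 calls, 4031 kept call and direction with DESeq2, 3707 with RLE scaling and 3849 with the replicate block. With GC correction 2219 did, with GC correction and the block 2067, and against the minimum fold 1538. Named genes were chosen for small adjusted p or for passing with 1 library left out, so their shares do not stand for all calls. Among named genes, the differences that changed sign had not passed. Elovl3 was −0.59 without sWAT cold libraries 2 and 3. Fasn was 0.29 with GC correction and 0.37 with GC correction and the block. Fgf21 was 0.72 and 0.83 under those, 1.32 and 0.22 with limma-voom with and without quality weights, 0.21 with the block, 0.017 with upper quartile scaling, 0.18 without both BAT libraries numbered 3 and −1.87 to 0.55 with 1 library left out. With 3 libraries per group and BAT responses of wide spread, a response that did not pass may still be present.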
